A study of Mus musculus with 6 samples.

Results

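The 9 genes described here, Tjp1, Ocln, F11r, Jam2, Jam3, Cd99l2, Cldn1, Cgnl1 and Pard3, encode proteins of the endothelial tight junction and the junctional adhesion molecules (JAMs). They were chosen by symbol from 24421 gene symbols in the read count table. A filter of at least 0.5 CPM (counts scaled by library size) in at least 1 sample left 14612 genes for testing, and 8 of the 9 genes passed it. Liver endothelial cells (ECs) were sorted by flow cytometry as CD31+CD45- cells from untreated wild-type (WT) female C57BL/6J mice. There were 3 samples from young mice aged 10 weeks and 3 from aged mice. The labels give the aged mice as 127, 131 and 136 weeks old, and the aged samples are named by those ages. RNA from 50000 cells per sample was read in 75-base single-end mode. The comparison asks how the levels of the 9 transcripts differed between young and aged liver ECs.

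Tight junctions seal the cleft between neighbouring ECs and control which solutes and cells pass through it. Claudins and occludin form the strands in the membrane, and JAMs are immunoglobulin-like adhesion proteins that also bind leukocyte integrins during diapedesis. ZO-1 and related scaffolds tie these proteins to actin, and the PAR polarity complex places the junction along the cell border. Liver sinusoidal ECs are fenestrated and lie on an incomplete basement membrane, so their junctions differ from those of the large vessels.

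The total counts ran from 23001556 to 31651817 per sample, so that 3 counts corresponded to 0.0947 to 0.135 CPM after scaling by edgeR's TMM factors. Reads carried no molecular identifiers, so this limit covers counting error only. The 5 pan-endothelial markers summed to between 8108 and 8521 CPM in young and between 5766 and 7507 CPM in aged samples, and were detected in every sample. Among them Kdr and Tek were lower in every aged sample, while Pecam1, Cdh5 and Tie1 overlapped between the ages. Of 6 sinusoidal markers, 5 were lower in every aged than in every young sample, against 8.33% of all genes tested. The 6 markers summed to 13167 to 14814 CPM in young and 5322 to 8924 CPM in aged samples. In bulk RNA fewer cells of a type cannot be told apart from less RNA per cell. Lars2 and Rn45s, symbols that collect ribosomal RNA reads, took 0.960% of counts in the 127-week library, 1.29% in young replicate 3 and 4.68% to 5.53% elsewhere. Differences for the tested members are therefore also given within the libraries with few (2 libraries) and many (4 libraries) such reads. The p-values measure the spread between these samples, which the labels do not tie to separate mice beyond their numbers and ages. Young replicates 1 and 2 were more alike than any other pair of the same age. The chi-squared statistic between their read counts was 20.2 per degree of freedom, against 146 to 186 for the other pairs. The reason was not tested.

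Pard3, Ocln and Jam3 were higher in every aged sample than in every young sample. The other 5 tested genes overlapped between the ages. Across all genes tested, 9.62% had all 3 aged samples above the young ones and 8.33% had all 3 below, and no tested member was in the latter group. No member passed an adjusted p of 0.05 in edgeR's quasi-likelihood test with Benjamini-Hochberg adjustment, nor did any other gene (0%). At an unadjusted p below 0.05, 3 members were higher in aged ECs, against 8.32% of all genes, and 0 were lower, against 4.32%. DESeq2 called 1 member higher (Pard3) and 0 lower, where it called 3.46% of 13979 genes higher and 1.11% lower. The median log2 fold change was 0.14 over the 8 members and 0.0098 over all genes tested.

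**Figure D1:**
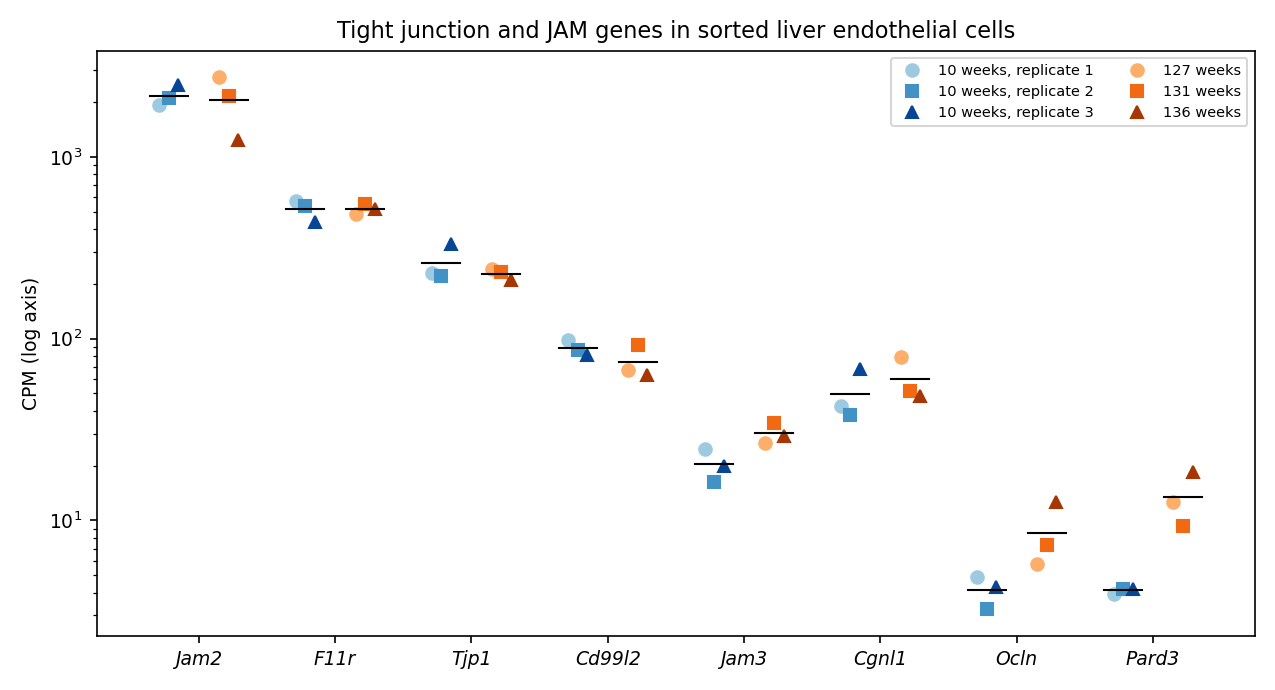
Expression of the 8 tested genes, in CPM on a log axis. Points are samples and bars are the means of each age (n = 3). The aged samples of Pard3 lie between 9.30 and 18.5 CPM and the young ones between 3.95 and 4.20 CPM, while most other genes overlap.

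**Figure D2:**
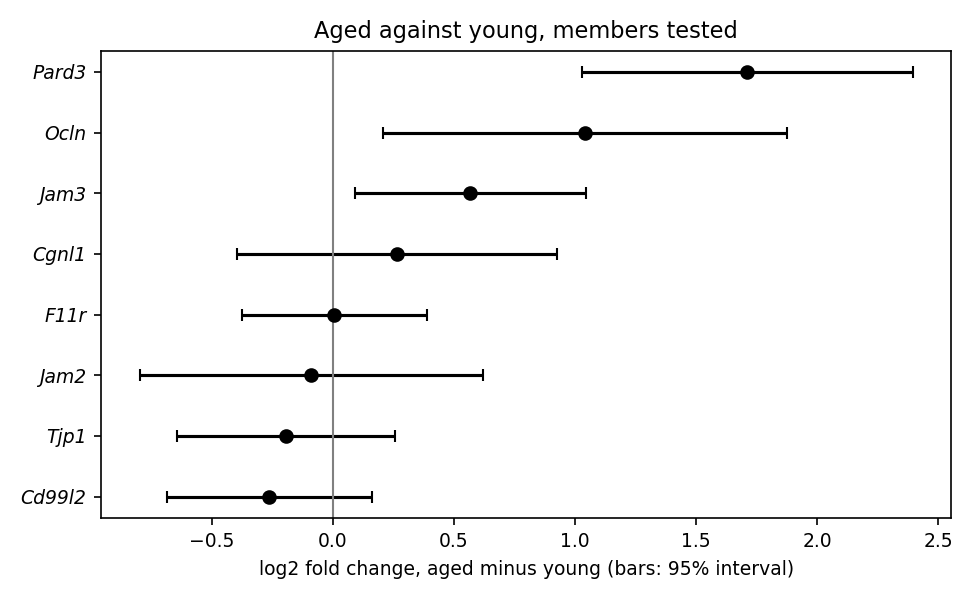
The log2 fold change of aged against young ECs from edgeR for the 8 tested genes, with 95% intervals as bars. The intervals of Pard3, Ocln and Jam3 lie above 0, before adjustment for multiple testing, and the other 5 include 0.

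Pard3 showed the largest difference of the 8 tested members. PARD3 is a PDZ scaffold that binds the JAM tails and recruits PAR6 and atypical protein kinase C to forming junctions. The Pard3 level was 3.95, 4.20 and 4.20 CPM in young replicates 1, 2 and 3, and 12.7, 9.30 and 18.5 CPM in the 127-, 131- and 136-week samples. The young samples lay close together (4.11 ± 0.145, SD, n = 3) and the aged samples were all higher and more spread (13.5 ± 4.64, SD, n = 3). These levels rested on 93 to 133 reads in young and 239 to 455 reads in aged samples. The log2 fold change was 1.71 ± 0.29 (SE), or 3.28-fold, with a 95% interval of 1.03 to 2.39. The Benjamini-Hochberg adjusted p was 0.184 in edgeR's quasi-likelihood test and 6.73e-05 in DESeq2. Within the libraries with many and few Lars2 and Rn45s reads, the difference in log2(CPM + 1) was 1.48 and 1.40. Leaving out each sample in turn gave log2 fold changes between 1.42 and 1.92. With only the 131-week sample kept as aged, the log2 fold change was 1.18; this sample then has no replicate and is assumed to vary like the young mice.

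In mm9, Pard3 lies on the plus strand at chr8:129587793-130136186, and its RefSeq promoter entries (GRCm38.p6) give a pair of start sites. The counts are per gene, so reads from the upstream and the internal start were not separated. Each 250-base window before a start site matched mm9 exactly at a single place, and the bases before the first annotated exon base are shown 5′ to 3′ because Pard3 had the largest difference. Capitals mark CAGGTG, the E-box of SNAI and ZEB factors, and TATAAA, the TATA box, on either strand.
Pard3 upstream start, chr8:129587706-129587792: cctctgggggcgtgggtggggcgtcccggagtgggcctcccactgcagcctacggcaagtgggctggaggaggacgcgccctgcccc
Pard3 internal start, chr8:129823262-129823484: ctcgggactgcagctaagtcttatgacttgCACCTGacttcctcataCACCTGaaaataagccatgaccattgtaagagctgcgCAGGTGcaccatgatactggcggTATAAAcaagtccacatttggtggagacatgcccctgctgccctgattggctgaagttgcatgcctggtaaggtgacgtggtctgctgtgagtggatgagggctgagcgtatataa
The upstream window had 79.2% G and C and 34 CpG over its 250 bases, against medians of 52.4% and 6 over the 32536 distinct RefSeq windows of that length. The internal window lies inside the gene and had 51.6% G and C and 5 CpG. It held CAGGTG 3 times, where 17.3% of all windows held it at least 1 time and 0.249% held it 3 or more times. TATAAA stood in it 1 time and in 12.3% of all windows. GGGCGG, the SP1 box, occurred 1 time in the upstream window, in exonic bases not shown, and in 33.0% of all windows. An NF-kB motif (in 1.4% of windows) and TGANTCA (AP-1, in 6.73%) occurred in neither window.

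The tight junction list held the 3 PAR6 genes, both atypical protein kinase C genes, the Pard3 paralogue Pard3b and Cdc42, the GTPase that binds PAR6. Apart from Pard6b, all of these overlapped between the ages, and they were singled out after their values were seen. Pard6b was 0.82, 0.45 and 0.54 CPM in young samples and 3.13, 1.21 and 2.68 CPM in the 127-, 131- and 136-week samples, with a log2 fold change of 1.95 ± 0.55 (SE) and a Benjamini-Hochberg adjusted p of 0.256 in edgeR's quasi-likelihood test. Pard6g, the most abundant PAR6 gene here at a mean of 27.0 FPKM, was 62.3, 65.8 and 34.5 CPM in young samples and 101.5, 41.1 and 188.6 CPM in aged samples. Only its 127- and 136-week samples lay above the young ones. Prkcz, an atypical protein kinase C gene, was likewise above the young range only at 127 and 136 weeks, with 10.5, 14.0 and 9.59 CPM in young and 24.7, 10.7 and 30.4 CPM in aged samples. Its log2 fold change was 0.95 ± 0.38 (SE), with an adjusted p of 0.371 in edgeR's quasi-likelihood test with Benjamini-Hochberg adjustment. The other atypical kinase gene, Prkci, had a log2 fold change of 0.014, Pard6a of -0.24 and the paralogue Pard3b of -0.17, and edgeR's quasi-likelihood test gave Benjamini-Hochberg adjusted p of 0.987, 0.726 and 0.891.

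**Figure D3:**
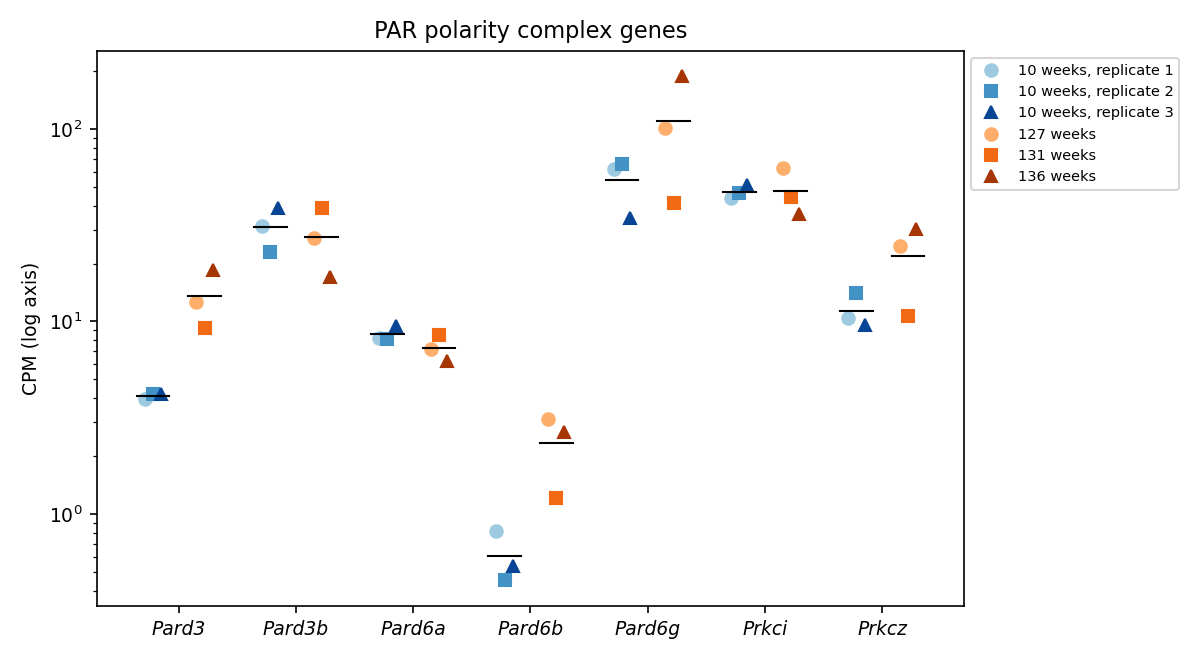
PAR complex genes, in CPM on a log axis. Points are samples and bars are the means of each age (n = 3). Pard3 and Pard6b are above the young range in every aged sample, whereas Pard6g and Prkcz are above it only at 127 and 136 weeks.

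Ocln encodes occludin, a membrane-spanning protein of tight junction strands. Ocln was low, at 4.88, 3.25 and 4.32 CPM in young replicates 1, 2 and 3, and 5.74, 7.27 and 12.6 CPM in the 127-, 131- and 136-week samples. The ages did not overlap, and the 136-week sample was the highest. Aged exceeded young ECs by a log2 fold change of 1.04 ± 0.36 (SE), or 2.06-fold, with a 95% interval of 0.21 to 1.87. The adjusted p was 0.331 in edgeR's quasi-likelihood test with Benjamini-Hochberg adjustment. Differences in log2(CPM + 1) within the library clusters were 1.09 in the cluster with many Lars2 and Rn45s reads and 0.34 in that with few. Without the 136-week sample the log2 fold change was 0.65. Without this sample or young replicate 2 the unadjusted p of edgeR was above 0.05.

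Ocln lies on the minus strand of mm9 at chr13:101266462-101322673. RefSeq gives 2 starts, and the window before the upstream start is shown, since the other window lies mostly in an annotated exon. Capitals mark GGGCGG, the SP1 box, on either strand.
Ocln upstream start, chr13:101322674-101322923: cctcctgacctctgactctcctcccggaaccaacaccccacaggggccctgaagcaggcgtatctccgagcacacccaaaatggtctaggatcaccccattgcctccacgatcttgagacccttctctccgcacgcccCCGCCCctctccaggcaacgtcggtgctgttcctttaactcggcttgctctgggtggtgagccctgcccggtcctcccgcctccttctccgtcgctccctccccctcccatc
It had 64.0% G and C and 14 CpG, and of the motifs searched held GGGCGG alone, 1 time. The window of the other Ocln start, with 220 of its 250 bases exonic, held CAGGTG 2 times and GGGCGG 1 time, and the windows of F11r and Cd99l2 held CAGGTG 1 time each.

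Cldn1 encodes claudin-1, a strand protein of epithelial tight junctions, and was at the detection limit. It had 8, 6 and 0 reads in young replicates 1, 2 and 3 and 3, 5 and 10 reads in the 127-, 131- and 136-week samples. The 0 reads of young replicate 3 allow a level of up to 0.0947 CPM. Cldn1 did not reach 0.5 CPM in any sample and was not tested in the filtered fit. Without the filter its log2 fold change was 0.30, with an adjusted p of 0.955 in edgeR's quasi-likelihood test with Benjamini-Hochberg adjustment, so a difference was not detectable at this depth.

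The JAM family was led by Jam2, which encodes JAM-B, an endothelial and lymphatic JAM that pairs with JAM-C. Its mean level was 442 FPKM, the highest of the 9 genes, and it stood at percentile 99.3 of all symbols in young ECs. Jam2 was 1919, 2114 and 2480 CPM in young and 2738, 2155 and 1235 CPM in the 127-, 131- and 136-week samples. The aged samples held both the highest and the lowest value, so the ages overlapped. The log2 fold change was -0.088 ± 0.30 (SE; 95% interval -0.80 to 0.62), with an adjusted p of 0.947 in edgeR's quasi-likelihood test with Benjamini-Hochberg adjustment. Leaving out single samples moved it from -0.35 without the 127-week sample to 0.17 without the 136-week sample, and it was 0.017 without young replicate 3. Within the libraries with many and few Lars2 and Rn45s reads it was -0.30 and 0.14 in log2(CPM + 1), so its direction was not the same in both.

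F11r encodes JAM-A, which holds neighbouring cells together at the apical border and binds LFA-1 on leukocytes. F11r was 568, 535 and 440 CPM in young and 482, 554 and 514 CPM in aged samples, and its mean was 219 FPKM. The ages overlapped, with a log2 fold change of 0.0063 ± 0.16 (SE; 95% interval -0.38 to 0.39). Within the libraries with many and few Lars2 and Rn45s reads the difference in log2(CPM + 1) was -0.048 and 0.13. Its sign turned in 6 of 16 alternative settings, other scalings included, and the adjusted p was 0.993 in edgeR's quasi-likelihood test with Benjamini-Hochberg adjustment.

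Jam3 encodes JAM-C, which binds JAM-B and the leukocyte integrin chain Itgam, and was the least abundant JAM at 13.8 FPKM. Jam3 was 24.7, 16.2 and 20.0 CPM in young and 26.8, 34.3 and 29.2 CPM in the 127-, 131- and 136-week samples. Every aged sample was above every young one, and the nearest values were 24.7 and 26.8 CPM. The difference amounted to a log2 fold change of 0.57 ± 0.20 (SE), or 1.48-fold, with a 95% interval of 0.09 to 1.05. After Benjamini-Hochberg adjustment, edgeR's quasi-likelihood test gave an adjusted p of 0.341. Its unadjusted p was above 0.05 without young replicate 2, young replicate 3 or the 131-week sample. The difference in log2(CPM + 1) was 0.64 in the libraries with many Lars2 and Rn45s reads and 0.40 in those with few. With only the 131-week sample kept the log2 fold change was 0.76.

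As a share of the summed FPKM of the 3 JAM genes, Jam2 made up 52.5% to 72.5% per sample, F11r 25.8% to 44.3% and Jam3 1.31% to 3.24%. The Jam3 share was 2.05%, 1.31% and 1.52% in young and 1.85%, 2.67% and 3.24% in the 127-, 131- and 136-week samples. On this measure Jam3 overlapped between the ages, since the 127-week sample, with the highest Jam2, lay below young replicate 1. The 136-week sample had the lowest Jam2 share and the highest F11r share.

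**Figure D4:**
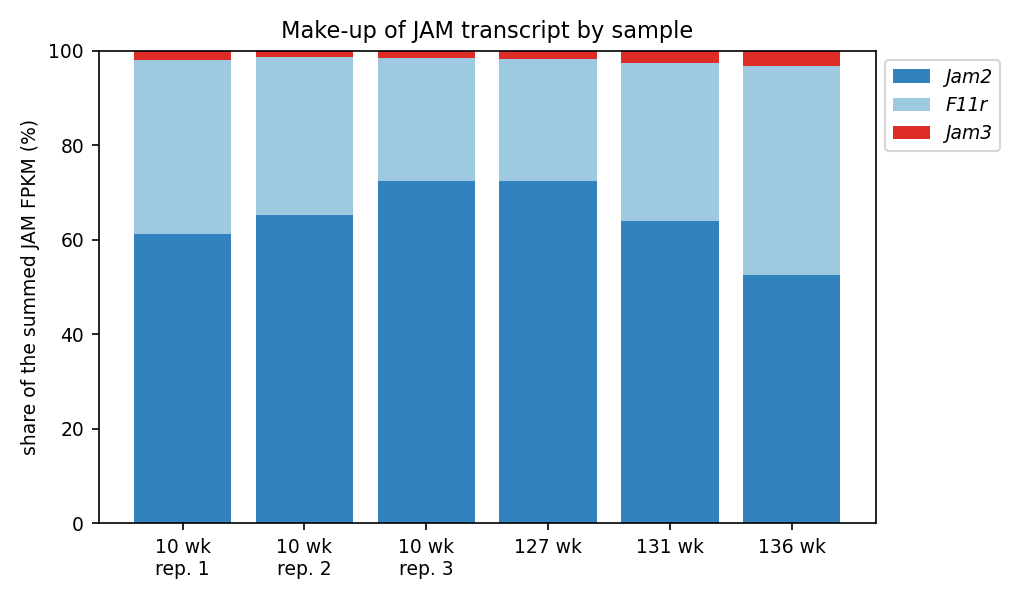
Share of each JAM gene in the summed FPKM of Jam2, F11r and Jam3, as stacked bars per sample from 0 to 100%. Jam2 forms the largest share in every sample, from 52.5% at 136 weeks to 72.5% in young replicate 3.

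Tjp1 encodes ZO-1, the scaffold that links JAMs, occludin and claudins to actin. Tjp1 was 230, 221 and 332 CPM in young and 242, 232 and 211 CPM in aged samples, with a mean of 35.1 FPKM. Young replicate 3 was the highest sample, and the others lay in a narrow range across both ages. The log2 fold change was -0.19 ± 0.19 (SE; 95% interval -0.64 to 0.26; adjusted p = 0.740 in edgeR's quasi-likelihood test with Benjamini-Hochberg adjustment). It was 0.016 without young replicate 3. In log2(CPM + 1) the difference was -0.028 in the libraries with many Lars2 and Rn45s reads and -0.45 in those with few.

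Cgnl1 encodes paracingulin, a linker protein at tight and adherens junctions. Cgnl1 was 42.6, 38.0 and 68.3 CPM in young and 79.0, 51.6 and 48.3 CPM in aged samples, and the ages overlapped. The highest sample of each age came from the cluster with few Lars2 and Rn45s reads, which stood above the other cluster by 0.75 in young and 0.65 in aged samples in log2(CPM + 1). Its log2 fold change was 0.26 ± 0.28 (SE; 95% interval -0.40 to 0.92; adjusted p = 0.762 in edgeR's quasi-likelihood test with Benjamini-Hochberg adjustment). It was 0.28 with the cluster as a term (adjusted p = 0.271, edgeR quasi-likelihood test with Benjamini-Hochberg adjustment), where its unadjusted p was below 0.05. Within the libraries with many and few such reads, aged minus young was 0.30 and 0.21 in log2(CPM + 1). Leaving out single samples moved the log2 fold change from 0.013 without the 127-week sample to 0.56 without young replicate 3.

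Cd99l2 encodes a CD99-related adhesion protein on ECs that takes part in leukocyte diapedesis. Cd99l2 was 98.6, 86.2 and 81.6 CPM in young and 67.2, 91.8 and 63.1 CPM in the 127-, 131- and 136-week samples. The 131-week sample lay within the young range, and the other aged samples were below it. Aged minus young was -0.26 ± 0.18 (SE, log2; 95% interval -0.69 to 0.16; adjusted p = 0.610 in edgeR's quasi-likelihood test with Benjamini-Hochberg adjustment), and -0.45 without the 131-week sample, where the unadjusted p of edgeR fell below 0.05. The difference in log2(CPM + 1) was -0.27 in the libraries rich in Lars2 and Rn45s reads and -0.28 in the others. Cd99l2 shares 34 exonic bases, 0.694% of its exonic length, with Gm16189 on the opposite strand, and no other member shares an exonic base with another annotated gene. The remaining members lie at chr7:72441051-72516125 (Tjp1), chr1:173367666-173394734 (F11r), chr16:84774368-84826173 (Jam2), chr9:26904969-26963003 (Jam3), chrX:68673235-68746024 (Cd99l2), chr16:26356728-26371927 (Cldn1) and chr9:71474316-71619409 (Cgnl1) in mm9.

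On the per-length scale the order of the mean levels was Jam2 (442 FPKM), F11r (219), Tjp1 (35.1), Cd99l2 (23.2), Jam3 (13.8), Cgnl1 (7.82), Ocln (2.02), Pard3 (1.74) and Cldn1 (0.067). Each gene was above the next in 6 of 6 samples, except that Ocln was above Pard3 in 5 of 6. Ocln and Pard3 are therefore neighbours whose order was not the same in every sample. By the pattern over the 6 samples in log2(CPM + 1), the genes most like Pard3 were Gm4759 (Pearson r = 0.998), 5430427O19Rik (0.994) and Bin1 (0.993), out of 164 genes above 0.95 among 14611. Gm4759 and 5430427O19Rik reached 0.5 CPM only in aged samples and so could be tested only if high there. For Jam2 they were Tmem199 (0.997), Zfp53 (0.994) and B3gnt4 (0.986), out of 65 above 0.95. These are descriptions over 6 libraries that share the age split and the cluster split.

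Around the members, a list of 57 other tight junction genes had 51 tested, of which 34 were positive and 17 negative in log2 fold change. Over all genes tested, 7462 were positive and 7150 negative. The median was 0.27 on the list against 0.0098 over all genes. edgeR's quasi-likelihood test gave 0 genes an adjusted p below 0.05, and 10 were higher and 1 lower at an unadjusted p below 0.05. The ages did not overlap for 13 that were higher and 1 that was lower, and DESeq2 called 4 higher (Cldn6, Cldn12, Lsr and Pard6b) and 0 lower. Over all genes these shares were 8.32% and 4.32% at the unadjusted p, 9.62% and 8.33% without overlap, and 3.46% and 1.11% by DESeq2. Of the 51 genes, 8 passed the filter on low counts only through aged samples, so they could enter only if high there, and 0 only through young samples. All 8 were positive in log2 fold change, and 3 of them were among the 10 higher at the unadjusted p. The sign counts and the median of the list include these 8, so no direction of the list is read from them. A filter of at least 1 CPM in at least 3 samples kept fewer than these 51 genes, and 7 of those kept were higher at the unadjusted p. Over all genes 1030 of 12315 were higher with that filter. All 8 tested members passed the filter in samples of both ages. The 6 most abundant genes of the list had log2 fold changes between -0.56 and 0.27. Esam, an endothelial adhesion molecule at 675 FPKM, was the only gene of the list lower at that p, at 1165, 1254 and 1694 CPM in young and 930, 1076 and 789 CPM in aged samples. Its log2 fold change was -0.56 ± 0.22 (SE; adjusted p = 0.366, edgeR quasi-likelihood test with Benjamini-Hochberg adjustment). Cldn5, the main endothelial claudin at 207 FPKM, overlapped between the ages with a log2 fold change of 0.26, and so did Cdc42 (-0.23), Ybx3 (-0.089) and 9430020K01Rik (-0.094), while Amotl2 (0.27) was higher in every aged sample.

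The genes that were higher at an unadjusted p below 0.05 were of low to middle level. Cldn12 was 18.2, 18.1 and 18.0 CPM in young and 29.7, 35.5 and 47.6 CPM in the 127-, 131- and 136-week samples, with a log2 fold change of 1.05 ± 0.20 (SE) and an adjusted p of 0.193 in edgeR's quasi-likelihood test with Benjamini-Hochberg adjustment. Lsr, a component of tricellular contacts, was 6.81, 8.26 and 3.91 CPM in young and 20.2, 9.69 and 41.3 CPM in aged samples. Both genes were above the young range in every aged sample. Cldn3 (log2 fold change 1.13), Cldn4 (2.27), Cldn6 (2.81), Cgn (1.97), Igsf5 (1.89) and Marveld3 (3.71), known mainly from epithelia, averaged between 0.104 and 3.66 FPKM, and none passed the adjusted p of edgeR's quasi-likelihood test, while Cldn6 passed that of DESeq2. Cldn6, Igsf5 and Marveld3 are among the 8 that passed the filter only through aged samples, so their values are given as a description. Cldn18, another of the 8, was singled out after its values were seen, with 150 reads in the 136-week sample and 0 in the other 5 libraries.

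**Figure D5:**
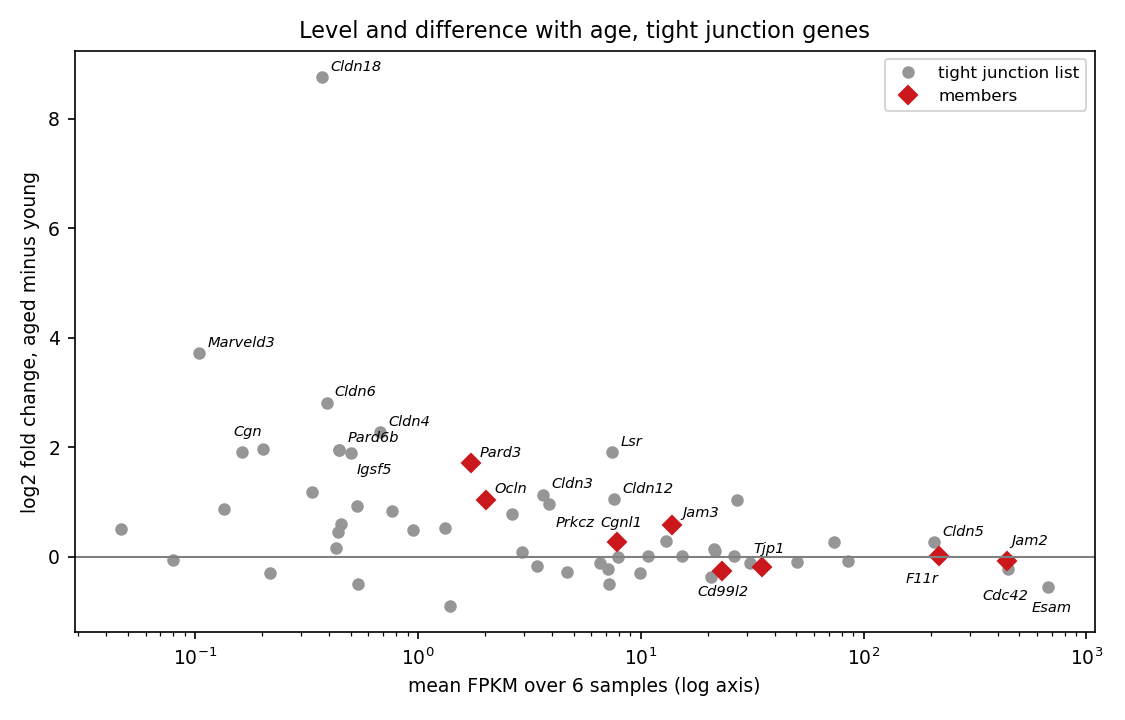
Mean FPKM over the 6 samples (log axis) against the log2 fold change of aged against young ECs for the 51 tested tight junction genes (circles) and the 8 tested members (diamonds). The labelled genes on the right lie between -0.56 (Esam) and 0.26 (Cldn5), and Pard3 (1.71) and Ocln (1.04) sit at the left among the low genes. The value of Cldn18, with no reads in 5 libraries, depends on the prior count of the fit.

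Summed markers of other cell types were higher in aged samples for cholangiocytes and lower for hepatocytes. For the remaining types in this paragraph the sums overlapped between the ages. Of 7 cholangiocyte markers, 7 were positive in log2 fold change, against 7462 of all 14612 genes tested. Among these markers 2 (Spp1 and Sox9) had every aged sample above every young one, against 9.62% of all genes tested. The 7 markers summed to 94.9 to 117 CPM in young and 198 to 255 CPM in aged samples, mostly Spp1. The epithelial keratin Krt19 was 14.5, 4.20 and 1.89 CPM in young and 10.5, 13.6 and 11.5 CPM in aged samples, and Epcam also overlapped between the ages. The 11 leukocyte markers summed to 37.1 to 68.4 CPM in young samples and to 119, 24.6 and 278 CPM in the 127-, 131- and 136-week samples. The 131-week sum was below the young range. The 8 hepatocyte markers summed to 105 to 155 CPM in young and 72.1 to 89.3 CPM in aged samples, and the 6 stellate and mural markers to 106 to 372 and 182 to 638 CPM. Most of the latter sum in aged samples was Reln (351, 109 and 496 CPM), while the stellate gene Lrat was lower in every aged sample (log2 fold change -2.19) and Col1a1 had -1.26 with overlap. Lymphatic markers summed to 20.2 to 51.7 and 32.7 to 188 CPM with Ccl21a at 0 in all samples, platelet markers to 28.3 to 32.8 and 22.5 to 29.6 CPM, and large-vessel markers to 4868 to 7042 and 4934 to 7153 CPM. The part of these cells in the differences of the junction genes was not tested.

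Genes of leukocyte receptors, chiefly integrin chains that bind JAMs, were not in the members but bear on the same contact. Of 7 such genes, of which Pilrb1 passed the filter on low counts only through aged samples, 3 (Itgal, Itgam and Itgb2) were higher at an unadjusted edgeR p below 0.05. None passed the adjusted p of edgeR's quasi-likelihood test, DESeq2 called 1, and 0 had ages that did not overlap, against 8.32% of all genes higher at the unadjusted p, 3.46% higher by DESeq2, and 9.62% and 8.33% without overlap. Itgb2, the integrin chain of LFA-1, was 3.87, 3.75 and 6.47 CPM in young and 13.3, 3.70 and 21.7 CPM in aged samples. Its order, with the 131-week sample below the young ones, was that of the summed leukocyte markers. Itgb1, which ECs also express, had a log2 fold change of -0.064.

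Among 33 tested genes of adherens junctions and diapedesis, 19 were positive and 14 negative, against 7462 and 7150 of all genes tested. The list had a median log2 fold change of 0.023. At an unadjusted p below 0.05 by edgeR, 4 (Vcam1, Icam1, Ezr and Pvr) were higher and 0 lower, and 0 passed the adjusted p. DESeq2 called 2 higher and 0 lower. The ages did not overlap for 5 that were higher and 3 that were lower. Over all genes the shares were 8.32% higher and 4.32% lower at the unadjusted p, and 9.62% and 8.33% without overlap. By DESeq2 they were 3.46% higher and 1.11% lower. Icam1, the endothelial ligand of LFA-1 beside JAM-A, was 425, 609 and 691 CPM in young and 1518, 1266 and 2310 CPM in the 127-, 131- and 136-week samples. Its log2 fold change was 1.56 ± 0.29 (SE), with an adjusted p of 0.193 in edgeR's quasi-likelihood test with Benjamini-Hochberg adjustment, against 0.0063 for F11r. Vcam1, a ligand of the integrin of Itga4 and Itgb1, had 1.21 ± 0.22 (SE; adjusted p = 0.193, edgeR quasi-likelihood test), against -0.088 for Jam2. Pecam1, used for the sort as CD31, had 0.015, and Cd47, Plvap and Msn had -0.32, 0.42 and -0.00032.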

How the data were processed

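Bulk RNA-seq of 3 young and 3 aged samples of CD31+CD45- liver ECs was analysed. Per the study's methods and the submitters' processing notes, bases were called with CASAVA 1.8.2 and reads were mapped to mm9 with TopHat2 2.1.0. The authors deposited raw read counts per gene symbol and FPKM values scaled between samples by Cuffnorm 2.2.1. The counting program, its annotation and its strand setting are not given in the sources used here, so overlapping and antisense genes could share reads. Ages of the aged mice are in months in the study's methods and in weeks in the labels, which were used.

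From the counts, genes with at least 0.5 CPM in at least 1 sample (14612 of 24421) were scaled by TMM and tested by the quasi-likelihood method of edgeR (edgeR 4.0.16, R 4.3.3), with Benjamini-Hochberg adjustment over all tested genes and a threshold of 0.05. CPM are per TMM-scaled library. FPKM served to compare levels between genes. With 3 samples against 3, an exact permutation test cannot give a p below 0.1, so single values were not tested that way. Alternatives were DESeq2 1.42.0, limma 3.58.1, other scalings and filters, a library cluster term and the removal of each sample. The cluster term split libraries above and below 3% of counts on Lars2 and Rn45s. The members, lists and markers were chosen with earlier results of these data known. Pard3 and Cldn12 are also in a list of genes higher in aged ECs that the study drew from the same samples. Named genes were all members and the 6 genes of each list with the highest FPKM. Up to 10 per list with the smallest unadjusted p below 0.05, and the 3 genes most like Pard3 and Jam2, were also named. Pard6a, Pard6g, Prkci, Prkcz, Pard3b and Cldn18 were named outside these rules, after their values were seen. Single marker genes were also named outside them. Marker lists covered pan-endothelial, sinusoidal, large-vessel and lymphatic endothelial cells, hepatocytes, cholangiocytes, leukocytes, platelets and stellate and mural cells. Positions are from GENCODE vM1 (NCBIM37, mm9). Promoters are from RefSeq (GRCm38.p6), with entries matched for 7 of 9 members (not Jam2 and Jam3).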

Additional observations from a re-analysis of the deposited data

How the results depend on the processing

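Pard3, Ocln, Jam3 and Cgnl1 kept a positive log2 fold change in all 16 alternatives run, of which Pard3 ranged from 0.94 (limma on log2(FPKM + 1)) to 1.92 (without the 131-week sample). Pard3 passed the adjusted threshold only with DESeq2 (log2 fold change 1.71), and its adjusted p ranged from 6.73e-05 to 0.688 over the alternatives. The adjusted p ranged from 0.128 to 0.934 for Ocln and from 0.191 to 0.840 for Jam3. Signs turned in 1 of 16 alternatives for Tjp1 and Cd99l2 (0.050 with only the 131-week sample), in 2 for Jam2 and in 6 for F11r. Over all genes, the number higher past the adjusted p was 3 with no filter on low counts, 484 with DESeq2 and 13 with limma-voom. It was 1 with limma on log2(FPKM + 0.1), 1 with the cluster term and 0 to 1 when single samples were left out. The number lower was 1, 155, 2, 1 and 1 in the first 5 of these alternatives. At an unadjusted p below 0.05 the genes higher numbered 729 to 1549 when single samples were left out (768 without young replicate 2, 729 without the 136-week sample). Those lower then numbered 346 to 887 (368 without young replicate 1, 346 without young replicate 2, 383 without the 136-week sample). The cluster term gave 961 lower. Of the members, DESeq2 called 1 higher past the adjusted p. At the unadjusted p, 1 to 3 members were higher when single samples were left out (1 without young replicate 2, where Ocln and Jam3 missed it). Members lower then numbered 0 to 1 (Cd99l2 without the 131-week sample). With the cluster term 4 members were higher, Cgnl1 being added. Tight junction genes then numbered 6 to 10 higher (6 without young replicate 2, young replicate 3 or the 127-week sample) and 0 to 2 lower. The lower count was 0 with total counts only and with limma on either log2 FPKM scale, and 2 with the cluster term. Adherens junction and diapedesis genes numbered 2 to 5 higher when single samples were left out (2 without young replicate 2 or 3). Those lower numbered 1 with DESeq2, 3 with limma-voom, 1 with limma at either pseudocount and 3 with the cluster term. Keeping only the 131-week aged sample, an alternative chosen after seeing the data that assumes it varies like the young mice, gave 507 genes higher and 287 lower, 4 and 0 on the tight junction list, and 2 and 1 on the adherens list. No paired analysis was run because the labels give no pairing between young and aged samples. Depth limits Cldn1, with at most 10 reads in a sample, and low genes such as Pard6b.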
